A study of Ovis aries with 36 samples.

Results

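The genes described here were those whose motor cortex level set all 5 lambs supported outside the uterus apart from all 4 lambs that were not supported, while the unsupported arms lay close to each other. They were 82 of 27054 genes in the deposited table, 45 higher and 37 lower in the supported lambs. They were chosen by their motor cortex values alone, expressed as CPM (the count scaled to a fixed library total). The mean over the 9 motor cortex libraries had to be at least 5 CPM and the larger of the late preterm and preterm means could be at most 25% above the smaller. For a higher gene the lowest supported lamb had to be at least 1.2 times the highest unsupported lamb, and for a lower gene the lowest unsupported lamb had to exceed the highest supported lamb by the same factor. The mean CPM was reached by 12412 genes, and 8088 of these met the limit between the unsupported arms.

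Brain tissue of 9 lambs was sequenced in 4 regions, which gave 36 libraries. Lambs A to E, labelled experimental, came out preterm, had cannulas placed straight away and lived on EXTEND, an extrauterine support system, until close to 127 days of gestation. Lambs F and G were late preterm controls, delivered at 127 days with necropsy straight after delivery, and lambs H and I were preterm controls, also examined straight after delivery. The gestational age of H and I at delivery is not given in the labels. Lambs A, B, D, E and H were female and lambs C, F, G and I male, so both late preterm lambs were male and 4 of the 5 supported lambs were female. No genetic change was made in any arm. Preterm delivery, cannulation and the time on support came together in the supported arm, so they cannot be told apart. Each animal gave 1 library per region, so values in the other regions came from the same 9 lambs as the motor cortex values.

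The motor cortex is the part of the cerebral cortex from which voluntary movement is driven. In the sheep fetus, as in the human fetus, cortical neurons extend axons and dendrites, form synapses and become surrounded by maturing glia before birth. Preterm birth moves part of this growth outside the uterus, and extrauterine support is meant to let it go on in a fluid environment with blood gas exchange through an external circuit. Bulk tissue was sequenced, so a lower level can mean less RNA per cell or fewer cells of a type, which cannot be told apart. The genes carry Ensembl sheep identifiers, and none of these could be paired with a symbol in the tables used here. Neither the function of a gene nor the cell types of the tissue could therefore be checked against markers. The genes were followed as groups, with 4 identifiers given as examples.

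Depth was 8782652 to 18153142 counts per library, and lambs A, H and I had shallower libraries in every region (8782652 to 13020225) than lambs B to G (13765297 to 18153142). The lowest count of any of the 82 genes in any motor cortex library was 37. When each library was compared with the mean region profiles of the other lambs, every motor cortex and cerebellum library (9 of 9 each) was nearest to its own region. Only 4 of 9 hippocampus libraries were (B and E were nearest to basal ganglia, and G, H and I to motor cortex). In the basal ganglia 5 of 9 were (A, F and G were nearest to hippocampus, and I to motor cortex). The hippocampus libraries of G, H and I and the basal ganglia library of I were thus not shown to be a tissue apart from the one that chose the genes. No supported hippocampus library was nearest to motor cortex, so region match differed between the arms there. It also differed in the basal ganglia, where F, G and I of the unsupported but only A of the supported lambs were nearest to another region. Some of these matches were weak: basal ganglia C had a correlation of 0.13 with its own region. Basal ganglia F had 0.33 with hippocampus and 0.31 with its own region. This also bears on the counts summed over regions. The cerebellum library of lamb H stood apart from all other cerebellum libraries (correlation 0.20 with the cerebellum profile), and the cerebellum differences are given with and without it. Those of D and G also matched less well (0.53 and 0.65) than the rest (0.79 to 0.89).

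In the motor cortex, which chose the genes and is therefore given as a description, the 45 higher genes had a median ratio of supported to unsupported means of 1.56, with a range from 1.27 to 4.42. Their median level was 89.3 CPM in the supported lambs and 54.4 CPM in the unsupported lambs. The 37 lower genes had a median ratio of unsupported to supported means of 1.72, from 1.31 to 3.51. Their median level was 16.4 CPM with support and 27.4 CPM without it.

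The gap between the nearest lambs was small for most genes. Its median was 1.252-fold for the higher and 1.26-fold for the lower genes, and the widest gaps were 1.69-fold and 1.93-fold. The higher gene just inside the 1.2-fold limit had a gap of 1.20012 and the one just outside 1.19817. For the lower genes these values were 1.20003 and 1.19435. The largest ratio between the unsupported arms among the 82 genes was 1.24648, and the nearest gene beyond the limit had 1.25954. The lowest mean level inside was 5.49 CPM and the highest outside 4.80 CPM. A further 51 genes passed the gap but not the limit between the unsupported arms, and 24 passed both but were below the minimum level. Among the higher genes the late preterm mean lay above the preterm mean in 32 of 45, and among the lower genes in 11 of 37.

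Scaling changed the balance of directions. With CPM computed on TMM effective library sizes (a scaling that discounts differences in RNA composition), the same rule gave 58 higher and 28 lower genes, of which 44 and 26 were among those chosen on plain CPM. In the edgeR quasi-likelihood test of the supported arm against the mean of the unsupported arms, 4.95% of all 16173 genes tested in the motor cortex were called higher and 3.52% lower at an adjusted p of 0.05, and 44 of the 45 higher and 36 of the 37 lower genes were called. Because the rule used the same values, nothing is read from those counts.

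**Figure D1:**
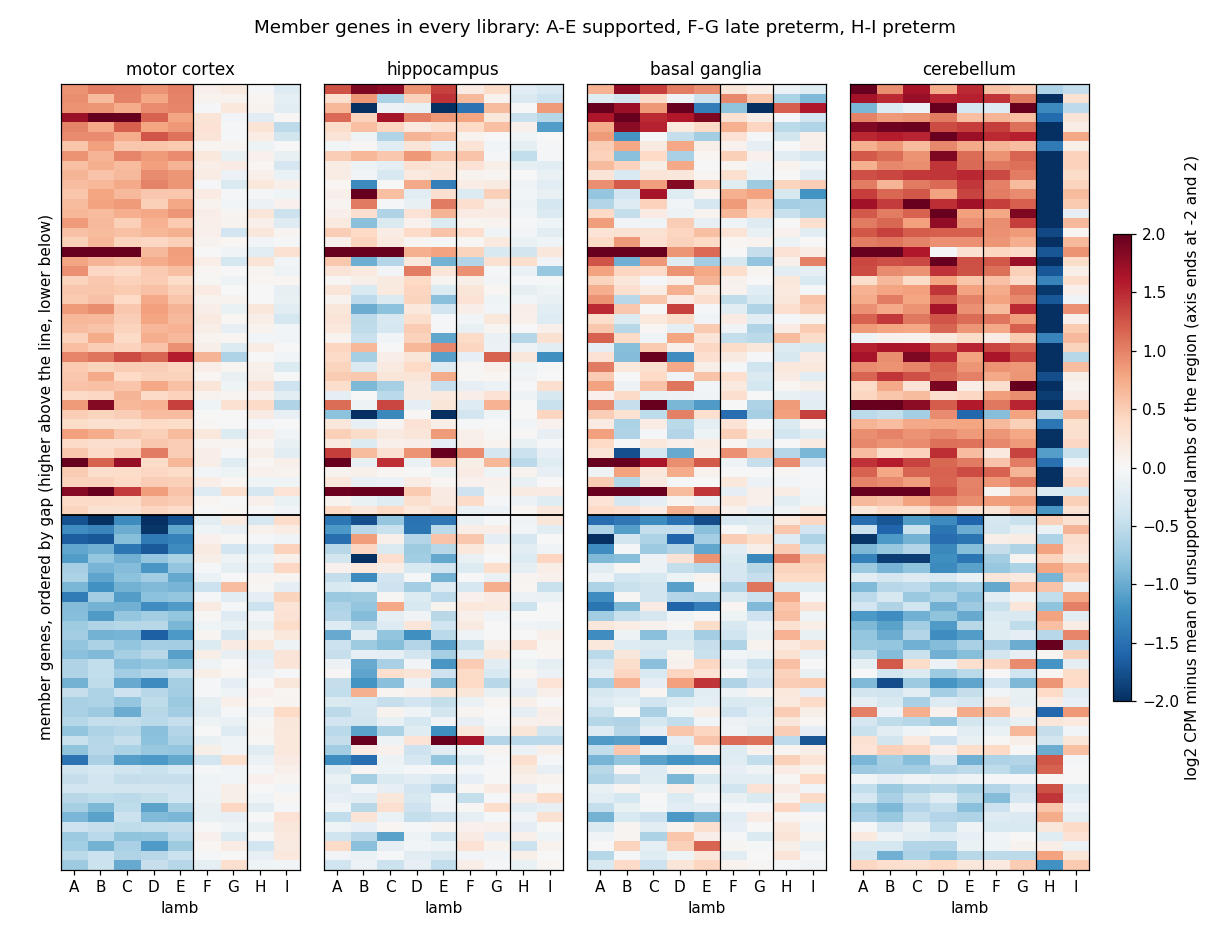
The log2 CPM of each of the 82 genes (rows, higher genes above the line, ordered by motor cortex gap) in each lamb (columns, A to E supported, F and G late preterm, H and I preterm), minus the mean of the 4 unsupported lambs of the same region, in 4 panels for the regions. The colour scale ends at 2 in either direction; the separation in the motor cortex panel was required by the choice of genes, and the cerebellum column of lamb H stands apart.

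The spread among the 5 supported lambs in the motor cortex is also given as a description, since the rule used these values. The median ratio of the highest to the lowest supported lamb was 1.24 for the higher and 1.32 for the lower genes, beside 1.31 for all 12412 genes above the minimum level. A range of at least 2-fold among supported lambs was seen in 5 of the 45 higher genes (11.1%) and 2 of the 37 lower genes, and in 7.98% of all genes. In 4 of those 5 higher genes lambs D and E had the 2 lowest values in the motor cortex, and for all genes with such a range this was so in 24.0%. The same 5 genes had D and E as their lowest pair in 4 of 5 in the basal ganglia (6.26% of the same 991 genes), 4 of 5 in the cerebellum (14.8%) and 2 of 5 in the hippocampus (7.87%). The pair D and E was taken from the values and not planned. Over all 45 higher genes D and E were lowest in 5 in the motor cortex, beside 14.0% of all 12412 genes. It was 5 in the hippocampus (9.40%), 5 in the basal ganglia (4.51%) and 10 in the cerebellum (10.3%). All 5 genes with the 2-fold range were higher in the motor cortex of D and E than in any unsupported lamb, as the rule required.

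The gene with the widest gap among the lower genes was ENSOARG00000012518. In the motor cortex it stood at 9.97, 7.82, 14.0, 8.15 and 9.95 CPM in the supported lambs A to E, at 29.4 and 39.1 CPM in the late preterm lambs F and G, while preterm lambs H and I had 27.1 and 44.6 CPM. Every supported lamb was below every unsupported lamb, and lamb C, the male of the supported arm, was the highest of the 5. In the hippocampus the supported lambs had 10.1, 7.996, 16.4, 9.87 and 10.2 CPM, and the unsupported lambs F to I had 25.6, 27.9, 27.1 and 33.5 CPM. The groups again did not overlap, also between C and the other males F, G and I.

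In the basal ganglia ENSOARG00000012518 was at 10.2, 10.9, 12.4, 10.4 and 8.51 CPM in lambs A to E and at 24.2, 24.7, 34.8 and 40.4 CPM in lambs F to I. In the cerebellum it was at 11.1, 9.72, 14.9, 13.4 and 10.6 CPM in lambs A to E and at 26.0, 24.2, 46.1 and 40.7 CPM in lambs F to I. The supported lambs stayed at one level in all 4 regions, with means of 9.98 ± 2.47 CPM in motor cortex, 10.9 ± 3.18 in hippocampus, 10.5 ± 1.40 in basal ganglia and 11.96 ± 2.14 in cerebellum (SD, n = 5). In basal ganglia and cerebellum both preterm lambs lay above both late preterm lambs, and both late preterm lambs above all supported lambs.

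In edgeR, ENSOARG00000012518 fell by 1.55 ± 0.15 on the log2 scale in the basal ganglia (estimate ± SE, adjusted p 0.0312) and by 1.47 ± 0.14 in the counts summed over the 3 other regions (adjusted p 0.022). The edgeR differences in the hippocampus (-1.37 ± 0.20, adjusted p 0.0614) and cerebellum (-1.56 ± 0.21, adjusted p 0.128) did not pass. The estimate in the summed counts lay between -1.59 and -1.42 when each lamb was left out in turn, but the edgeR call held only without C, D or I (adjusted p 0.0528 to 0.185 without each of the other 6). In the basal ganglia the call held without C or E, and the edgeR adjusted p was 0.0796 to 0.290 without each of the other 7. With sex as a term the summed difference was -1.29 (edgeR adjusted p 0.0782) and with depth as a term -1.51 (edgeR adjusted p 0.146).

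The gene with the widest gap among the higher genes was ENSOARG00000007262. In the motor cortex it stood at 10.3, 11.3, 11.1, 10.3 and 11.2 CPM in lambs A to E, at 5.74 and 6.08 CPM in F and G, and at 5.18 and 4.33 CPM in H and I. The supported lambs lay within 1 CPM of each other and well above all unsupported lambs. In the hippocampus it was at 13.8, 20.9, 19.8, 10.5 and 14.6 CPM in lambs A to E and at 6.09, 7.12, 4.53 and 4.296 CPM in lambs F to I. The spread among supported lambs was wider there than in the motor cortex, with no overlap.

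In the basal ganglia ENSOARG00000007262 was at 10.7, 23.1, 17.5, 13.5 and 12.4 CPM in lambs A to E and at 7.66, 6.91, 5.85 and 5.31 CPM in lambs F to I. In the cerebellum it was at 41.0, 18.2, 30.3, 16.0 and 26.99 CPM in lambs A to E and at 14.2, 13.3, 5.92 and 6.57 CPM in lambs F to I. In all 4 regions both preterm lambs were below both late preterm lambs, which were below every supported lamb. In the counts summed over the 3 other regions ENSOARG00000007262 rose by 1.43 ± 0.16 (edgeR log2 estimate ± SE, adjusted p 0.0429). Taken singly, the hippocampus gave an edgeR adjusted p of 0.0614, the basal ganglia 0.114 and the cerebellum 0.155, with differences of 1.58, 1.251 and 1.43. Leaving out each lamb moved the summed estimate only between 1.36 and 1.53, and the edgeR call held without C, D or I (adjusted p 0.0528 to 0.274 without each of the other 6). With sex or the depth group as a term the edgeR adjusted p was 0.142 and 0.146, at log2 differences of 1.52 and 1.47.

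A further gene of each direction was picked after the values had been seen, the first because the supported lambs split and the second because its groups were apart in all regions. ENSOARG00000012272, a higher gene, stood at 76.2, 69.3 and 55.6 CPM in the motor cortex of lambs A, B and C but at 17.0 and 19.3 CPM in D and E, against 10.6, 10.1, 9.03 and 13.3 CPM in lambs F to I. In the hippocampus A, B and C had 74.2, 59.3 and 66.3 CPM, D and E 16.8 and 17.9 CPM, and F to I 13.8, 8.01, 7.70 and 11.8 CPM. A, B and C had in the basal ganglia 82.6, 102.9 and 71.3 CPM, D and E 19.0 and 22.8 CPM, and F to I 10.2, 7.19, 12.5 and 11.3 CPM. Lambs A, B and C were thus several times above D and E in each of these regions, while D and E were still above every unsupported lamb.

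In the cerebellum ENSOARG00000012272 was at 63.1, 76.9 and 43.9 CPM in A, B and C and at 13.8 and 17.5 CPM in D and E. There the unsupported lambs F to I had 19.3, 18.5, 3.99 and 26.6 CPM, so D and E lay among them and the groups overlapped. The log2 difference in the summed counts was 2.00 ± 0.52 and did not pass (edgeR adjusted p 0.117). It remained without a call when any lamb was left out (edgeR adjusted p 0.0825 to 0.440).

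ENSOARG00000015873, a lower gene, stood at 4.68, 4.42, 5.67, 2.70 and 5.46 CPM in the motor cortex of lambs A to E and at 11.2, 10.6, 12.6 and 13.1 CPM in F to I. In the hippocampus it was at 4.19, 6.60, 7.17, 3.27 and 6.69 CPM in A to E and at 10.97, 10.9, 9.53 and 8.497 CPM in F to I. Basal ganglia levels were 6.68, 4.66, 7.39, 7.51 and 5.67 CPM in A to E and 10.6, 9.16, 15.8 and 7.96 CPM in F to I. The groups did not overlap in these regions, although lambs D and I were close in the basal ganglia. In the cerebellum, where the gene was higher in all lambs, A to E had 21.3, 9.26, 21.2, 10.2 and 14.2 CPM and F to I 22.3, 25.4, 26.2 and 46.8 CPM. The difference in the summed counts was -0.89 ± 0.18 on the log2 scale and did not pass (edgeR adjusted p 0.0691), with no call when any lamb was left out (edgeR adjusted p 0.0678 to 0.323).

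**Figure D2:**
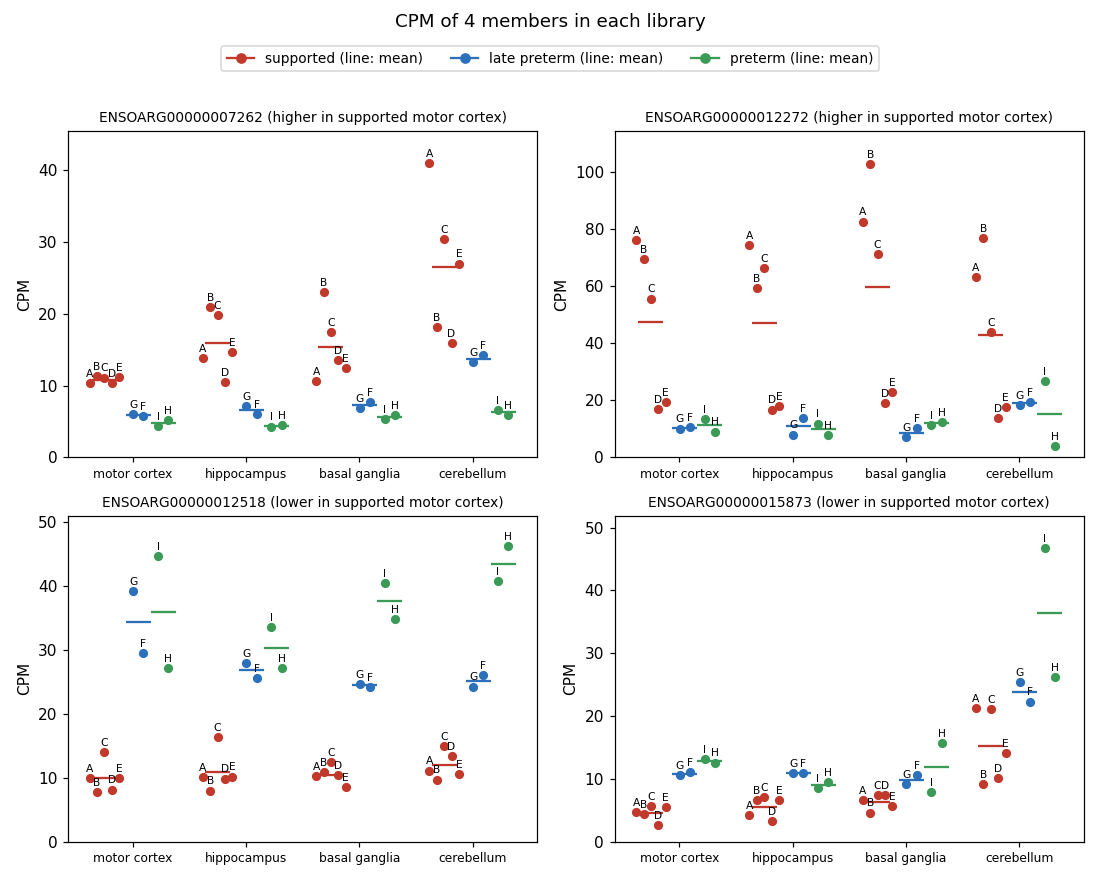
CPM (vertical axis) of the 4 genes given by identifier in each library, by region (horizontal axis), with 1 point per lamb, its letter above it and a line at the mean of each arm. ENSOARG00000012518, ENSOARG00000007262 and ENSOARG00000015873 show no overlap between supported and unsupported lambs in any region, and ENSOARG00000012272 overlaps in the cerebellum, where D and E are at 13.8 and 17.5 CPM.

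The comparison of the supported lambs with the unsupported lambs in the 3 other regions asked whether the genes set apart in the motor cortex were set apart elsewhere in the same animals. In the counts summed over hippocampus, basal ganglia and cerebellum, 44 of the 45 higher genes were higher and 33 of the 37 lower genes lower in the supported lambs, without regard to a test. The median log2 difference was 0.32 for the higher and -0.39 for the lower genes, against 0.01 over all 18143 genes tested. In edgeR 1 higher and 1 lower gene passed an adjusted p of 0.05, the genes ENSOARG00000007262 and ENSOARG00000012518, where 0.0165% of all genes were called higher and 0.011% lower. At an unadjusted p of 0.05, 26 of 45 and 23 of 37 passed in the direction of the motor cortex, where 8.67% of all genes passed as higher and 7.53% as lower.

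In the hippocampus the sign of the motor cortex was seen in 32 of 45 higher and 34 of 37 lower genes, with median log2 differences of 0.15 and -0.28 against 0.02 for all 16370 genes. None of the 82 genes passed edgeR's adjusted threshold, at which 0.0183% of all genes were called higher and 0.00611% lower. At an unadjusted p of 0.05, edgeR gave 11 higher genes (background 11.7%) and 14 lower genes (background 8.52%) in the motor cortex direction, and DESeq2 called 12 of the 82 after adjustment (5.86% of all genes). The shift of the higher genes was thus small in this region and that of the lower genes larger. With only the hippocampus libraries nearest their own region (A, C, D and F), F was the single unsupported lamb. The medians were then 0.09 for the higher and -0.24 for the lower genes, beside 0.01 over all genes. Values of supported and unsupported lambs did not overlap in 5 of 45 higher genes (2.89% of all genes at 5 CPM or more) and 4 of 37 lower genes (3.65%). Of the lower genes, 36 reached that level in the hippocampus, and 3 of these did not overlap.

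The basal ganglia showed the sign of the motor cortex in 37 of 45 higher and 30 of 37 lower genes, with median log2 differences of 0.36 and -0.25 against 0.03 for all 16679 genes. No higher gene passed in edgeR (background 0%, with 16 at an unadjusted p of 0.05, background 8.69%). One lower gene passed, ENSOARG00000012518 (background 0.012%), and 12 lower genes had an unadjusted p under 0.05 (background 4.67%). DESeq2 called 11 of the 82 after adjustment (3.48% of all genes). The groups did not overlap in 8 of 45 higher (1.93%) and 5 of 37 lower genes (1.69%).

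In the cerebellum the differences were the largest of the other regions. There the motor cortex sign was seen in 43 of 45 higher and 33 of 37 lower genes, with median log2 differences of 0.85 and -0.79 against 0.01 for all 16304 genes. Without lamb H these medians were 0.56 and -0.41, with the sign in 43 and 35 genes. No gene of the table passed in edgeR after adjustment (background 0% in either direction), while DESeq2 called 606 genes (2.72%), 24 of them among the 82. At an unadjusted p of 0.05 in edgeR, 23 higher (background 5.97%) and 25 lower genes (background 8.32%) passed in the motor cortex direction. The groups did not overlap in 8 of 45 higher (1.65%) and 14 of 37 lower genes (1.97%). All of these were among the 42 higher and 36 lower genes at 5 CPM or more in the cerebellum.

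The cerebellum library of lamb H moved with that result. Relative to the mean of the unsupported cerebellum libraries, the median of the higher genes was 0.94 to 1.19 on the log2 scale in the supported lambs, 0.87 and 0.95 in the late preterm lambs F and G, 0.32 in lamb I and -2.14 in lamb H, whose median over all genes was -0.44. The late preterm cerebellum libraries were thus near the supported ones for the higher genes, although that of G matched its region less well. For the lower genes the medians were -0.65 to -0.45 in the supported lambs, -0.28 and -0.16 in F and G, and 0.23 in each of H and I. Without lamb H, edgeR called 7 higher (1.11% of all genes) and 10 lower genes (0.649%) of the 82 in the cerebellum, and the groups did not overlap in 8 of 45 higher (2.08%) and 16 of 37 lower genes (4.05%). ENSOARG00000012518, which had not passed in the cerebellum with all lambs, passed there without H (-1.37 on the log2 scale, edgeR adjusted p 0.027). In the summed counts, leaving out the cerebellum library of H gave 2 higher (0.154% of all genes) and 1 lower gene (0.193%) called in edgeR, with medians of 0.26 and -0.34. The sum of lamb H then held hippocampus and basal ganglia only, while the sums of all other lambs held the cerebellum too. The tissue mix thus differed between H and the other lambs in that fit. Without lamb I, where H alone stood for the preterm arm, 41 higher (27.9% of all genes) and 28 lower genes (21.8%) were called in the cerebellum and 3 were called in the opposite direction.

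**Figure D3:**
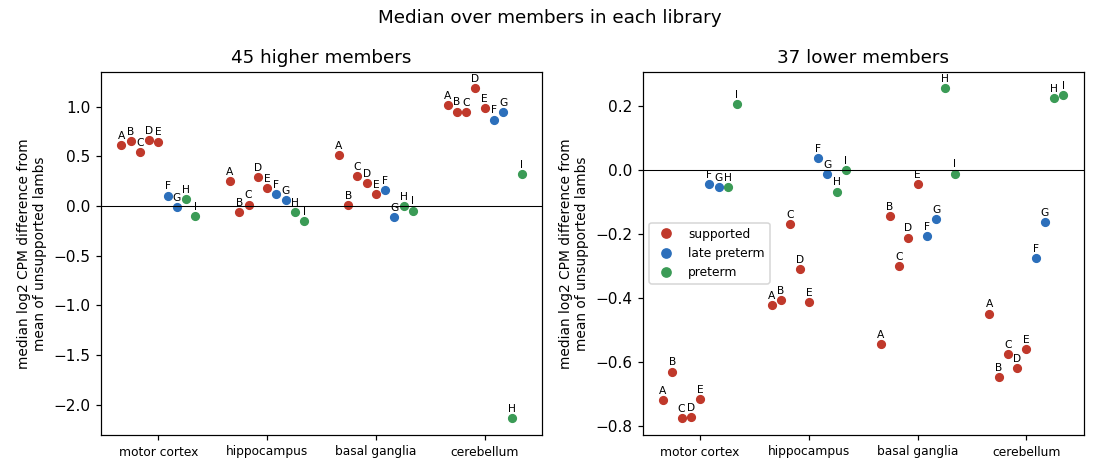
The median over the 45 higher genes (left) and 37 lower genes (right) of the log2 CPM difference from the mean of the 4 unsupported lambs of the same region (vertical axis) in each library, by region (horizontal axis), with 1 point per lamb coloured by arm. In the cerebellum the late preterm lambs F and G are at 0.87 and 0.95 for the higher genes, next to the supported lambs, and lamb H is at -2.14.

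The late preterm and preterm arms were close in the motor cortex by the choice of genes, and in the other regions the supported lambs could be set beside each arm. These comparisons share the supported libraries, so their values are given side by side. In the cerebellum the median log2 difference of the higher genes was 0.16 from the late preterm and 1.57 from the preterm lambs, and that of the lower genes -0.30 and -1.26. Without lamb H the differences from the preterm arm, then lamb I alone, were 0.91 and -0.57. In the basal ganglia it was 0.39 and 0.40 for the higher and -0.08 and -0.40 for the lower genes. In the hippocampus it was 0.08 and 0.24 for the higher and -0.32 and -0.28 for the lower genes. Whether the differences from the late preterm and preterm arms were unequal was not tested.

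Against the preterm lambs alone, edgeR called 10 higher (2.65% of all genes) and 21 lower genes (6.92%) in the cerebellum, 31 of the 82 in the summed counts (2.34% of all genes higher and 3.24% lower) and 3 in the hippocampus (1.32% and 1.2%). Without lamb H the cerebellum comparison with lamb I alone gave 13 higher (2.01%) and 14 lower genes (1.92%). Against the late preterm lambs alone edgeR called none of the 82 in hippocampus, cerebellum or the summed counts, and in the basal ganglia it called ENSOARG00000012518 (adjusted p 0.0362, 0.204% of all genes called lower). At an unadjusted p of 0.05 in edgeR, the late preterm comparison gave 5 higher (2.51% of all genes) and 6 lower genes (2.35%) in the motor cortex direction in the hippocampus, and 2 (0.644%) and 4 (0.546%) in the cerebellum. In the basal ganglia it gave 13 (8.71%) and 7 (6.43%), with 4 higher and 1 lower gene in the opposite direction. In the summed counts it gave 8 (3.27%) and 12 (2.04%). Over all genes in the cerebellum that comparison with the late preterm lambs gave 0 calls and 194 genes at an unadjusted p of 0.05.

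**Figure D4:**
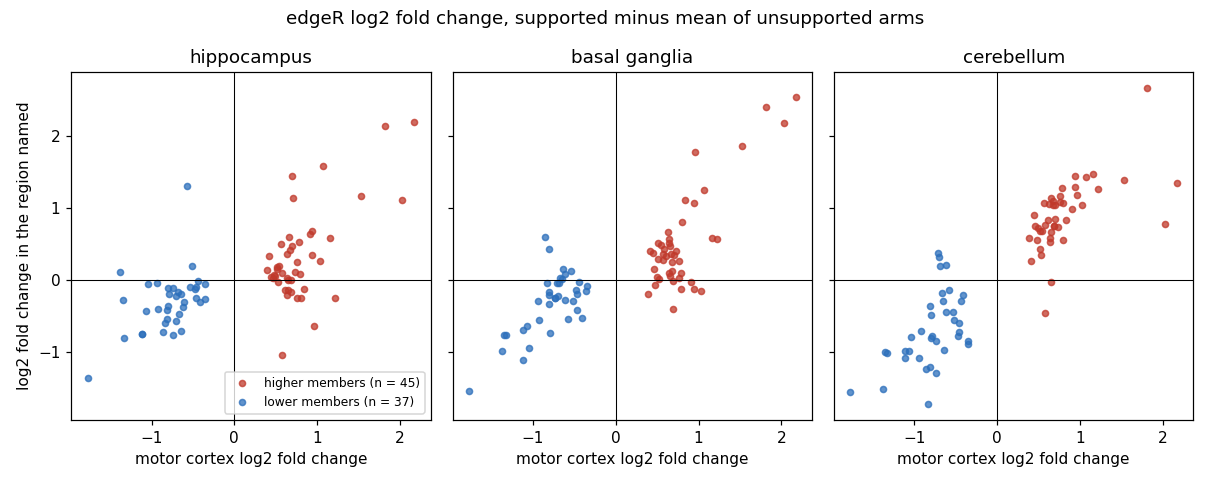
The edgeR log2 fold change of each gene, supported minus the mean of the unsupported arms, in the motor cortex (horizontal axis) and in the region named above each panel (vertical axis). The 45 higher genes and 37 lower genes are separated along the horizontal axis by the choice of genes. In the cerebellum 43 and 33 of them lie on the same side of 0 as in the motor cortex.

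Lack of overlap was counted again over the 3 other regions together. At least 1 of them showed it in the motor cortex direction for 14 of 45 higher genes (5.68% of the 11974 genes with at least 5 CPM in all 3) and 15 of 37 lower genes (6.97%). At least 2 showed it for 6 higher (0.618%) and 6 lower genes (0.317%). The 82 genes were not held to that level in these counts. All 3 showed it for 1 higher gene, ENSOARG00000007262, and 2 lower genes, ENSOARG00000012518 and ENSOARG00000015873, beside 0.0585% and 0.0251% of all genes. No gene of the 82 was separated in the opposite direction in any region.

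Depth and sex differed between the arms, and the signs were counted within each. Lambs A, H and I, with the shallower libraries, hold 1 supported and 2 preterm lambs, and lambs B to G hold 4 supported and both late preterm lambs, so depth within these sets also sets the unsupported arm. These counts use means of plain CPM, while those of the regions above use edgeR estimates. Among the shallower lambs the sign of the motor cortex was seen for 44 of 45 higher genes in the hippocampus, 42 in the basal ganglia and 42 in the cerebellum. Of all genes at 5 CPM or more, 51.8%, 43.0% and 58.9% were higher there. Among the deeper lambs the counts were 22, 31 and 34, beside 45.4%, 58.2% and 43.0% of all genes. For the 37 lower genes the counts were 31, 35 and 31 among the shallower and 33, 17 and 33 among the deeper lambs. Of all genes, 48.2%, 57.0% and 41.1% were lower among the shallower and 54.6%, 41.8% and 57.0% among the deeper lambs. Without lamb H, lamb A against lamb I in the cerebellum gave 41 higher and 35 lower genes with the sign, for which no share over all genes was computed. The higher genes in the hippocampus and the lower genes in the basal ganglia therefore did not hold their sign among lambs B to G. Their median log2 differences were -0.02 and 0.04, beside -0.03 and 0.07 over all genes. Among the males C, F, G and I the sign was seen for 21, 36 and 34 higher genes and 30, 31 and 33 lower genes in hippocampus, basal ganglia and cerebellum. Of all genes, 45.2%, 45.8% and 39.4% were higher and 54.8%, 54.2% and 60.6% lower among the males. The median of the higher genes in the male hippocampus was -0.07, beside -0.04 over all genes. Among the females the counts were 34, 42 and 45 higher and 30, 33 and 28 lower genes. Of all genes, 52.2%, 48.6% and 64.0% were higher and 47.8%, 51.4% and 36.0% lower among the females. Lamb H is the single unsupported female, so no female comparison without H exists. Within an arm, depth differed only between lamb A and lambs B to E. Sex differed only between C and the other supported lambs and between H and I. The depth and sex terms of the fits rest on these lambs. The part of depth, sex and region match in these differences was not tested beyond these counts and the edgeR fits with depth or sex as a term, which called none of the 82 in the summed counts. At an unadjusted p of 0.05 the fit with depth gave 27 higher (6.19% of all genes) and 23 lower genes (5.71%) in the motor cortex direction there, and the fit with sex 21 (6.04%) and 21 (5.71%).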

How the data were processed

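Flash-frozen tissue of 4 brain regions from 9 lambs gave 36 mRNA libraries. The deposited table holds whole-number counts per gene. Per the series' design text, the authors removed adapters with fastp, ran SeqKit for read quality and mapped with STAR to the sheep genome of Ensembl release 107, and STAR's unstranded column gave the counts. Versions of those tools are not stated, and reads of overlapping or antisense genes cannot be told apart.

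Levels are CPM from the deposited counts, and log2 CPM was taken after adding 0.5. Arms, regions and sex came from the labels. The members and lists were chosen with earlier results of these data known. Within region and arm, 48 library pairs were compared, and their chi-square per gene was at least 8.17, so none was a copy of another.

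Each region was fitted over its 9 libraries with edgeR 4.0.16 in R 4.3.3 (TMM factors, filterByExpr, quasi-likelihood F-test, Benjamini-Hochberg adjustment over all genes tested, threshold 0.05), as the supported arm minus the mean of the late preterm and preterm arms. Counts of the 3 other regions were also summed per lamb and fitted in the same way. All arms shared 1 estimate of the spread, because 2 arms hold 2 lambs each. The fits were tested on simulated data. Of genes given a 2-fold change, 44% were called in the hippocampus, 25% in the basal ganglia, 6% in the cerebellum and 49% in the summed counts. At 4-fold these shares were 81%, 73%, 78% and 85%. A gene without a call in these regions can therefore not be read as unchanged. Alternatives were DESeq2 1.42.0, no filter on low counts, depth or sex as a term, 2 groups, each unsupported arm alone and each lamb left out. Region match is the highest correlation of a centred library with the centred region profiles of the other lambs.

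The reference table (35057 sheep genes, assembly ARS-UI_Ramb_v3.0) holds 0 of the Ensembl identifiers, so symbols were not assigned and the planned lists of cell type markers and pathways were not tested. The genes to name were, per direction, the one with the widest motor cortex gap and the one with the smallest p in the summed counts, which were the same gene each time, and a further gene per direction was chosen after its values were seen.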

Additional observations from a re-analysis of the deposited data

Results flagged for a closer look

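One group of values held a lamb far from the others. In the hippocampus of the supported lambs, ENSOARG00000012518 was at 16.4 CPM in lamb C, and the other 4 supported lambs were at 7.996 to 10.2 CPM. The gap between C and the next lamb was 0.738 of the whole range of the 5 lambs, where 0.71 is the 95% critical value of Dixon's test. In all, 24 groups of 5 supported lambs were tested and 1 passed, and chance alone passes about 1 group in 20. Lamb C was also the highest supported lamb in the motor cortex (14.0 CPM), the basal ganglia (12.4 CPM) and the cerebellum (14.9 CPM), and it was the male of that arm.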

How the results depend on the processing

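The 4 genes given by identifier kept their direction in the motor cortex and the summed counts under the alternatives run. In the motor cortex the choice of genes set that direction. For the summed counts, the genes had been named by their p there or after their values were seen. Nothing is therefore read from the kept direction. A count of genes has no direction to reverse. Of the counts of called or chosen genes, 62 were close to the main count (equal or within 1.5-fold), 25 were larger and 27 smaller. Those 62 include counts of 0 beside a main count of 0 in the hippocampus and cerebellum. They also include motor cortex counts, from which nothing is read, so this tally does not measure how stable the calls were. The medians within sets of lambs turned for the higher genes in the hippocampus (lambs B to G, and males) and the lower genes in the basal ganglia (lambs B to G). Over all genes those medians were -0.03, -0.04 and 0.07. DESeq2 called 12 in the hippocampus, 11 in the basal ganglia, 24 in the cerebellum and 36 in the summed counts (4.56% of all genes there), against edgeR's 0, 1, 0 and 2. Depth as a term, sex as a term, 2 groups, the late preterm arm alone and the sum without the cerebellum each gave 0 in the summed counts. The preterm arm alone gave 31 there, where 1012 of all 18143 genes were called. In the basal ganglia depth, sex, 2 groups and the preterm arm alone gave 0, for the 82 and for all genes. With only the basal ganglia libraries nearest their own region (B, C, D, E and H), 1 unsupported lamb was left. That fit could hardly call a gene, and its medians were 0.22 for the higher and -0.45 for the lower genes, beside 0.03 over all genes. Against the preterm arm alone there were 3 in the hippocampus and 31 in the cerebellum, 27 there without H. Against both unsupported arms, the cerebellum gave 19 without D, G and H. Leaving out 1 lamb gave 0 to 1 in the hippocampus (1 without D), 0 to 1 in the basal ganglia, 0 to 69 in the cerebellum (17 without H, 69 without I) and 0 to 16 in the summed counts (16 without I). In the motor cortex it gave 53 (without I) to 79, and the late preterm arm alone gave 0. The late preterm arm alone called 0 of all 16173 genes in the motor cortex. More genes of the whole table were also called without I in the summed counts. This was also so in the cerebellum without H, without I, and without D, G and H. Fewer were called in the motor cortex without I. In each of these fits an unsupported arm held 1 lamb. Their counts of the 82 thus moved with the calls over all genes. Without lamb B the basal ganglia call was another gene than ENSOARG00000012518. The fit on libraries nearest their own region, the preterm comparison, the overlap counts and the A against I signs without H, and the sum without its cerebellum library were chosen after seeing the data. The causes were not tested.

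The choice of genes moved with its limits. A gap of 1.0 gave 444 higher and 555 lower genes, and a gap of 1.5 gave 2 and 4. Leaving out 1 lamb gave 47 (without I) to 104 (without F) higher and 45 (without D) to 102 (without G) lower genes. Members were also lost: without H, 33 of the 45 higher and 23 of the 37 lower genes still met the rule. No paired analysis was possible because the arms compared hold different lambs. Only 2 lambs in each unsupported arm and the shallower libraries of A, H and I limit the precision of every value.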
